A study of Mus musculus with 24 samples.

Results

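The comparison was ULA against adherent culture in Ifngr1-KO ID8 p53-/- cells that received vehicle (PBS) and no interferon-gamma (IFN-gamma). Its members are 6 of the series' 24 RNA sequencing libraries, chosen by their labels: 3 libraries of Ifngr1-KO cells in ultra-low attachment (ULA) plates, in which cells stay detached, and 3 of the same line on regular plates, in which they attach. ID8 is a mouse ovarian surface epithelial tumour line, and both groups lack p53 function by label (p53-/-) and carry the edit at Ifngr1, the gene of the ligand-binding chain of the IFN-gamma receptor. Wells were seeded with 300000 cells, PBS was added 24 hours later and cells were harvested 48 hours after seeding. ULA wells went through a dead cell removal step that the adherent wells did not, so the culture and that step cannot be told apart. The Ifngr1-KO genotype is 1 line, and the labels number the libraries as biological replicates without saying more. The p-values therefore rest on the spread between cultures, pooled over all 8 groups of the series and not taken from these 6 libraries alone. Used beside them were the same cultures of Ifngr1-KO cells given IFN-gamma at 100 ng/ml for the last 24 hours (6 libraries). PBS cultures of the control line labelled sgNTC, also ID8 p53-/- by label, were used too (6 libraries). The sgNTC cultures given IFN-gamma in the same way (6 libraries) entered the fit and the check of response genes.

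Epithelial cells that lose contact with a substrate lose integrin signalling, and many normal cells then die by anoikis, a form of apoptosis driven by BH3-only proteins of the BCL2 family. Ovarian cancer cells survive this step as floating clusters in ascites, where they meet low oxygen and low nutrient supply. Stress in the endoplasmic reticulum (ER) is sensed by the unfolded protein response, and shortage of amino acids by the integrated stress response, whose transcription factor is ATF4. Interferons act through receptors and transcription factors on a shared set of antiviral and immune genes, which are also induced without IFN-gamma by type I and type III interferons.

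The labels were checked against the counts first. Ifngr1 (chr10:19591949-19610229, plus strand, GRCm38) stood at 14.4, 14.1 and 15.5 CPM (a count relative to the TMM-scaled library size, the level used below) in the ULA libraries and at 14.8, 16.7 and 15.4 CPM in the adherent ones. These groups overlap (log2 fold change -0.09 ± 0.09 (SE), adjusted p = 0.371 by the quasi-likelihood test of edgeR, adjusted after Benjamini and Hochberg, which was used for every gene below). The sgNTC line in PBS had 35.6 ± 3.39 CPM (SD, n = 3) on ULA and 43.2 ± 1.98 CPM when adherent. Response genes of IFN-gamma were compared by level. Irf1, a transcription factor, was at 55.6 CPM with IFN-gamma and 55.8 CPM without it on ULA in this line, and at 131 and 48.4 CPM in the sgNTC line. Gbp2 was at 16.3 ± 2.42 CPM with IFN-gamma and 16.7 ± 1.54 CPM without it on ULA, whereas the sgNTC line went from 22.2 ± 2.00 to 123 ± 48.9 CPM. Trp53 transcripts were still counted, at 19.4 ± 3.10 CPM on ULA and 32.4 ± 3.37 CPM in adherent cells, and fell (-0.74 ± 0.09 on the log2 scale, adjusted p = 1.48e-08). From the epithelial and mesothelial list, the keratins Krt8, Krt18 and Krt19 and the factor Wt1 had 15613 or more counts in each culture. This list holds the markers expected in this line. Its members Krt7, Cdh1, Msln, Upk3b and Lrrn4 were tested and not called. Pax8 and Krt14 had 15 and 1 counts over the 6 libraries, and Epcam and Krt5 had no count in any of them. Ptprc, Adgre1, Itgam, Lyz2 and Tyrobp of macrophages, Cdh5 and Kdr of endothelium and Pdgfra and Lum of fibroblasts had none either. Some other markers on those lists were counted and rose on ULA, by 1.32 (Vwf) to 3.46 (Csf1r) on the log2 scale. They were Csf1r, Mrc1 and Cd68 of macrophages, Pecam1 and Vwf of endothelium and Dcn and Des of fibroblasts and pericytes. Col1a1 (-2.08) and Cspg4 (-3.51) of the fibroblast and pericyte list fell. Cd14 of macrophages and Tie1 and Egfl7 of endothelium were not called.

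The 6 libraries held 38185599 to 43877127 counts. Culture was the main axis among them: the first principal component took 67.7% of the variance and placed the 3 ULA libraries at 56.7 to 59.7 and the 3 adherent ones at -58.9 to -57.3. Adherent replicate 3 stood apart from its group on the next component (9.62% of the variance), at -44.0 against 18.8 and 24.7. Between libraries of a group, the chi-square per gene was 21.2 and 20.9 for the pairs with adherent replicate 3 and 5.55 to 8.43 for the others. A gene was called at an adjusted p under 0.05. Of 14622 genes tested, 8870 were called (60.7%), 4327 of them higher on ULA (29.6%) and 4543 lower (31.1%). Without adherent replicate 3 the count was 8595, of which 8171 were among the 8870. A change of more than 2-fold was seen for 1676 called genes that rose (11.5%) and 994 that fell (6.8%). The 3 ULA and 3 adherent libraries did not overlap for 9191 genes (62.9%), so that a call or a gap between the groups is the usual case here, and the gene groups below are read against these shares. Lists were taken from general knowledge of each pathway, and 987 of their 1146 entries passed the filter on low counts. Counts of members are over those that passed. The filter ran over all 24 libraries, so that some members passed through 1 culture alone or through other groups. Gbp5, Psmb8, Col3a1, Col6a1 and Ly6a had no count in either culture here. With only the groups compared, 29 interferon-inducible, 16 antigen presentation, 11 complement and acute-phase and 25 matrix genes were tested. In bulk RNA, fewer cells of one kind and less RNA per cell cannot be told apart.

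The 12 genes with the largest rise among those that averaged 5 CPM or more in either culture and had no overlap between cultures, predicted genes left out, included several that encode secreted and surface proteins. Muc4 (chr16:32735886-32782391), a membrane mucin, stood at 203, 201 and 197 CPM on ULA and at 5.48, 4.25 and 3.77 CPM in adherent cells. Every ULA library was far above every adherent one, a log2 fold change of 5.48 ± 0.15 (adjusted p = 1.18e-18). Edn2, a vasoconstrictor peptide, stood at 7.90, 8.81 and 10.6 CPM on ULA and at 0.104, 0.182 and 0.0513 CPM in adherent cells, where its 14 counts in 3 libraries leave the fold (log2 6.27 ± 0.33) imprecise. Hp, the haemoglobin-binding plasma protein haptoglobin, reached 17.7, 20.7 and 21.5 CPM against 0.470, 0.295 and 0.821 CPM (5.26 ± 0.24). Ceacam1, a cell adhesion molecule of the carcinoembryonic antigen family, reached 206, 201 and 198 CPM against 6.26, 9.04 and 5.96 CPM (4.82 ± 0.13, adjusted p = 1.86e-19). Beside these 4 the leading genes were Gdpd2, the aldehyde oxidase Aox3, the gel-forming mucin Muc5b, C1qtnf1, Nrep, the transglutaminase Tgm5, Txnip and the transporter Abcc3, with log2 fold changes from 3.99 (Abcc3) upward. That the 12 do not overlap between the cultures was set by the rule that chose them.

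The 12 genes with the largest fall, by the same rule, included enzymes of amino acid metabolism. Cps1, a carbamoyl phosphate synthetase, fell from 13.2, 13.3 and 9.29 CPM in adherent cells to 0.313, 0.204 and 0.204 CPM on ULA (log2 fold change -5.62 ± 0.38, adjusted p = 4.34e-12). Bcat1, which transaminates branched-chain amino acids, fell from 79.6, 80.8 and 82.3 CPM to 4.04, 3.12 and 4.81 CPM (-4.34 ± 0.11, adjusted p = 1.12e-26). Cth, which makes cysteine from cystathionine, fell by 4.36 on the log2 scale. Ddr2, a receptor tyrosine kinase for fibrillar collagen, fell from 35.7, 32.0 and 26.0 CPM to 0.678, 0.766 and 0.586 CPM (-5.52 ± 0.24), whereas its relative Ddr1 rose by 1.56 ± 0.06. Fgf21, a stress-induced hormone, fell from 38.4, 40.0 and 43.3 CPM to 1.85, 1.10 and 1.40 CPM (-4.80 ± 0.22). The others were Abca12, Cox6a2, Gpr141, Avil, Akr1b7, Atp2a3 and Sh2d6, at -4.43 to -3.92. The same rule left out genes with overlap, so that the gap between the cultures in these 12 is no result.

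**Figure D1:**
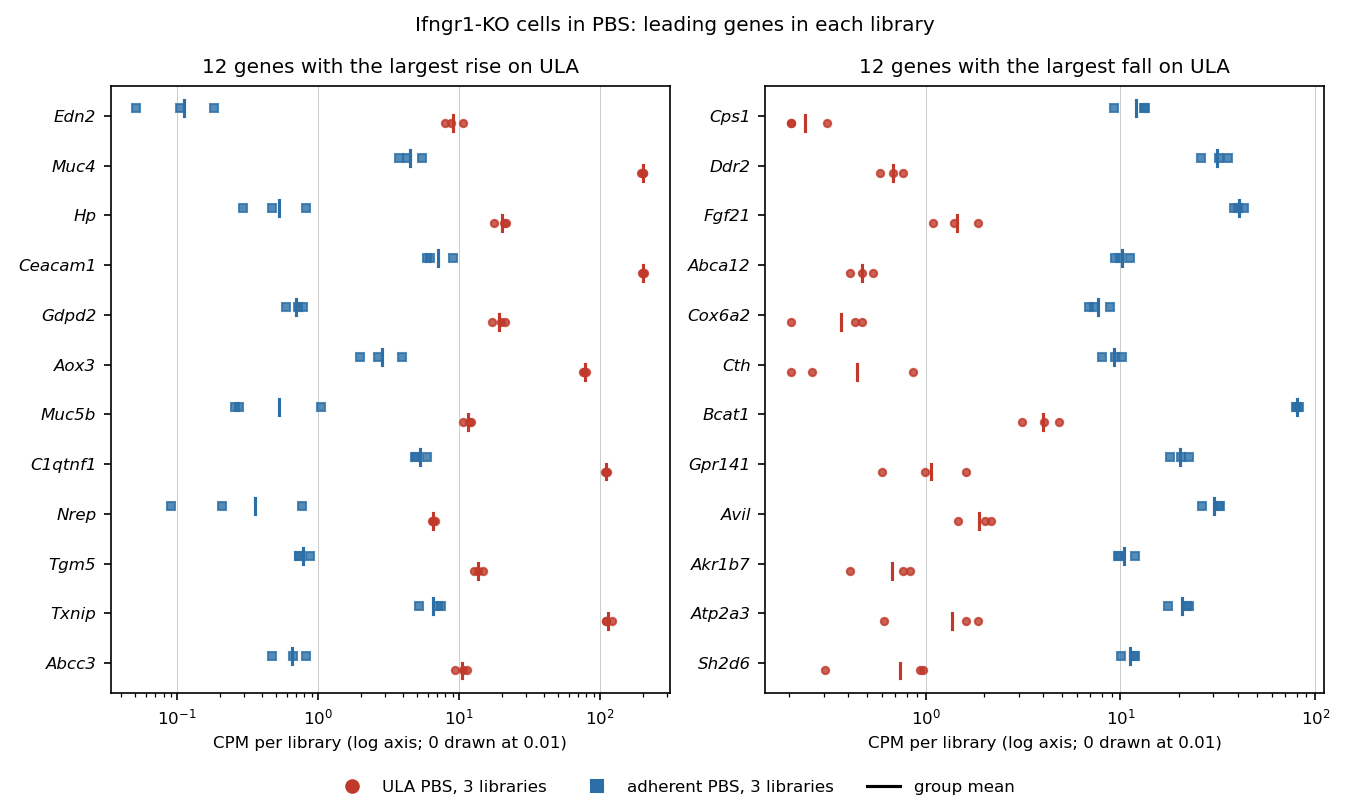
CPM in each library (log axis) of the 12 genes with the largest rise (left) and the 12 with the largest fall (right) on ULA. Circles are the 3 ULA libraries, squares the 3 adherent ones and bars the group means. Genes with overlapping groups were left out by the rule, and Muc4 stood at 197 to 203 against 3.77 to 5.48 CPM.

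ER chaperones and other genes of the unfolded protein response fell as a group. All 22 tested members fell and none rose, with a median log2 fold change of -2.04 against -0.004 over all genes tested. Hspa5 (chr2:34771970-34777547), the chaperone BiP that holds the ER stress sensors inactive, was the second most abundant transcript among the genes that changed over 1.5-fold. It stood at 10008, 9707 and 10269 CPM in the adherent libraries and at 1396, 1403 and 1528 CPM in the ULA ones, 6.93-fold less (log2 fold change -2.79 ± 0.05, adjusted p = 4.78e-30). Hsp90b1, the ER member of the HSP90 family, fell from a mean of 5062 ± 293 to 1174 ± 25.8 CPM (SD, n = 3). Pdia4, a protein disulfide isomerase, fell from 2036 ± 134 to 212 ± 6.74 CPM (-3.26 ± 0.05), and Creld2 from 766 ± 18.9 to 55.4 ± 0.936 CPM (-3.79 ± 0.07). Sel1l, the adaptor of ER-associated degradation, fell by 2.38 on the log2 scale. The member that moved least, the lectin chaperone Canx, fell by 0.62. All 22 stayed lower in every setting tried, the one without adherent replicate 3 included, other than the test against a 1.5-fold change, which called 21.

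Promoters of some of these genes hold the ER stress element, to which ATF6 binds with the factor NF-Y. The elements of a few members are printed here to show its form. The element was searched as CCAAT, any 9 bases and CCACG, on both strands, after values of these genes had been seen, in RefSeq promoters (build GRCm38.p6, from 250 bases before to 50 after the start of each gene). It was in 8 of the 19 members that had a promoter in the table (42.1%) and in 0.137% of all 27025 genes with one. Its shorter part CCACG, which overlaps it, was in 17 of 19 (89.5%) and in 35.5% of all genes. A match describes letters and not binding. Capitals mark the letters of the element, which lies on the opposite strand in Creld2, and the stretches are chr2:34772020-34772047, chr15:88819506-88819585 and chr12:17266465-17266528, all on the plus strand.
Hspa5: cttcaCCAATcggaggcctCCACGacgg
Creld2: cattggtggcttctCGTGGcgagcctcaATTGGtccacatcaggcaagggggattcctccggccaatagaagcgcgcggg
Pdia6: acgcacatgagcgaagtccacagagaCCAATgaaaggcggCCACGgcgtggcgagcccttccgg

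Genes of the integrated stress response fell with them. Of 29 tested members 25 fell and 1, the lipoprotein receptor Vldlr, rose, with a median log2 fold change of -1.81 (-1.72 with the member without a count on ULA, Stc2, set at the limit of 3 counts over the group). Chac1, which degrades glutathione, stood at 139, 149 and 157 CPM in adherent cells and at 13.1, 13.0 and 15.9 CPM on ULA (-3.40 ± 0.09, adjusted p = 7.98e-26). Ddit3, the factor CHOP, fell from 319, 317 and 319 CPM to 24.7, 18.1 and 21.0 CPM (-3.90 ± 0.09). Its symbol is shared by several identifiers, of which the most counted was used. Ppp1r15a, a regulatory subunit of the eIF2-alpha phosphatase, fell by 2.77. The mitochondrial serine enzyme Shmt2 fell by 2.71 and the asparagine synthetase Asns by 1.81 (154 against 539 CPM). Not called were Cebpb at 0.10 ± 0.07, the amino acid carrier Slc7a5 at -0.02 ± 0.08 and Stc2.

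The element of ATF4 and its partners (CARE, searched as TGATGNAA on both strands) was in the promoters of 9 of 26 members (34.6%) and of 5 of 13 cytosolic tRNA synthetases (38.5%), against 4.51% of all genes. Vldlr, the member that rose, carried it too. The members below, which fell, show it in both orientations, with the matched letters in capitals. The stretches are chr2:119351022-119351101 (plus strand), chr7:45615571-45615650 (minus) and chr6:7693220-7693247 (minus).
Chac1: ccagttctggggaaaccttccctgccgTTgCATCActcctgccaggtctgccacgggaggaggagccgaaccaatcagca
Fgf21: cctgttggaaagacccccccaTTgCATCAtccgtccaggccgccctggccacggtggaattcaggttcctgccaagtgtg
Asns: tgggtcccagccacaTGATGaAActtcc

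Most genes on the lists of the translation machinery fell. Among the tRNA synthetases, which charge tRNAs with amino acids, 19 of 20 fell (median -0.84) and Dars rose (0.57 ± 0.07). Wars stood at 373, 367 and 371 CPM in adherent cells and at 72.8, 75.4 and 80.3 CPM on ULA (-2.28 ± 0.05), and Gars, Tars and Lars fell by 1.54, 1.37 and 1.48. All 30 ribosomal protein genes of the list fell, within a narrow range of -1.34 to -0.49 (median -0.87). Rpl3 fell most, from a mean of 1923 ± 82.9 to 757 ± 17.5 CPM. Ribosome biogenesis genes fell in 27 of 28 cases (median -1.01; Polr1a was at -0.13 and not called), among them the nucleolar proteins Npm1 (-1.33 ± 0.05), Ncl (-1.22 ± 0.05) and Mybbp1a (-1.22 ± 0.05). The elongation factor Eef1a1, the most abundant transcript among the genes that changed over 1.5-fold, fell from 11459, 11395 and 11078 CPM to 6562, 6716 and 6840 CPM.

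Interferon-inducible genes were higher on ULA without added IFN-gamma. Of 35 tested members 31 rose and none fell, and in 31 the ULA libraries lay above all adherent ones (30.5% of all genes). The median log2 fold change was 2.87, or 2.28 with the 5 members without a count in a group set at their limit of 3 counts over the group, and 26 rose over 2-fold. Without adherent replicate 3, 30 rose. Ifih1, the cytosolic RNA sensor MDA5, stood at 33.4, 30.0 and 30.8 CPM on ULA and at 7.83, 6.56 and 6.57 CPM in adherent cells (2.17 ± 0.10, adjusted p = 2.91e-20). Parp14, an ADP-ribosyltransferase, stood at 13.3, 14.1 and 14.5 CPM against 1.17, 1.36 and 0.924 CPM (3.58 ± 0.19). Ifitm3, which blocks virus entry, rose by 1.95 ± 0.10 and the ubiquitin ligase Dtx3l by 1.85 ± 0.10. Stat2, a transcription factor of the pathway, rose by 0.53 ± 0.11.

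Further members were picked after their values were seen. Mx1, an antiviral GTPase, rose from 0.0261, 0.227 and 0.513 to 5.92, 3.86 and 3.87 CPM (4.14 ± 0.41), and the factor Irf7 from a mean of 0.689 to 5.93 CPM (3.10 ± 0.26). Oas1a, a sensor of double-stranded RNA, had 61 counts on ULA (1.10, 0.102 and 0.382 CPM) and none in adherent cells. Against a floor of 3 counts over the group, for counting error only, it was 21.3-fold higher. That value rests on ULA replicate 1 and is 9.78-fold without it. Gbp7 had 20 counts against 0, 6.93-fold higher against the same floor. As each mate of a read pair adds a count, 3 counts can stand for fewer than 3 molecules, and values set on this floor are no strict limits. Not called were Bst2 (0.61 ± 0.27, adjusted p = 0.0533, groups apart), Zbp1 and Iigp1, with 22 and 12 counts on ULA, and Gbp5, with no count in either group. Among genes of the ligands, Ifng, Ifnb1, Ifnl2 and Ifnl3 had no count in the 6 libraries. By the same floor this allows up to 3 counts in each group. The 14 interferon-alpha genes had 0 counts on ULA and 2 in adherent cells. Interferons from the medium or below this depth were not tested.

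The interferon-stimulated response element, the site of ISGF3 and IRF factors, was searched as GAAA, any 2 bases and GAAA, on both strands. It was in 18 of the 28 members with a promoter (64.3%) and in 3.99% of all genes. The printed members show 3 overlapping copies (Isg15, which rose by 1.12 ± 0.19), 2 (Oas1a) and 1 on the opposite strand (Gbp7). The stretches are chr4:156200839-156200918 (minus strand), chr5:120907526-120907605 (minus) and chr3:142530256-142530335 (plus).
Isg15: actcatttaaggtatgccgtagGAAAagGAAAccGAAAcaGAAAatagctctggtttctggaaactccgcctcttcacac
Oas1a: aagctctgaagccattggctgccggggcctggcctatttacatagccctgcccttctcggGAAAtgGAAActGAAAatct
Gbp7: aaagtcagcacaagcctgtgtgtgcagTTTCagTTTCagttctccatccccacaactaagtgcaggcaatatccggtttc

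**Figure D2:**
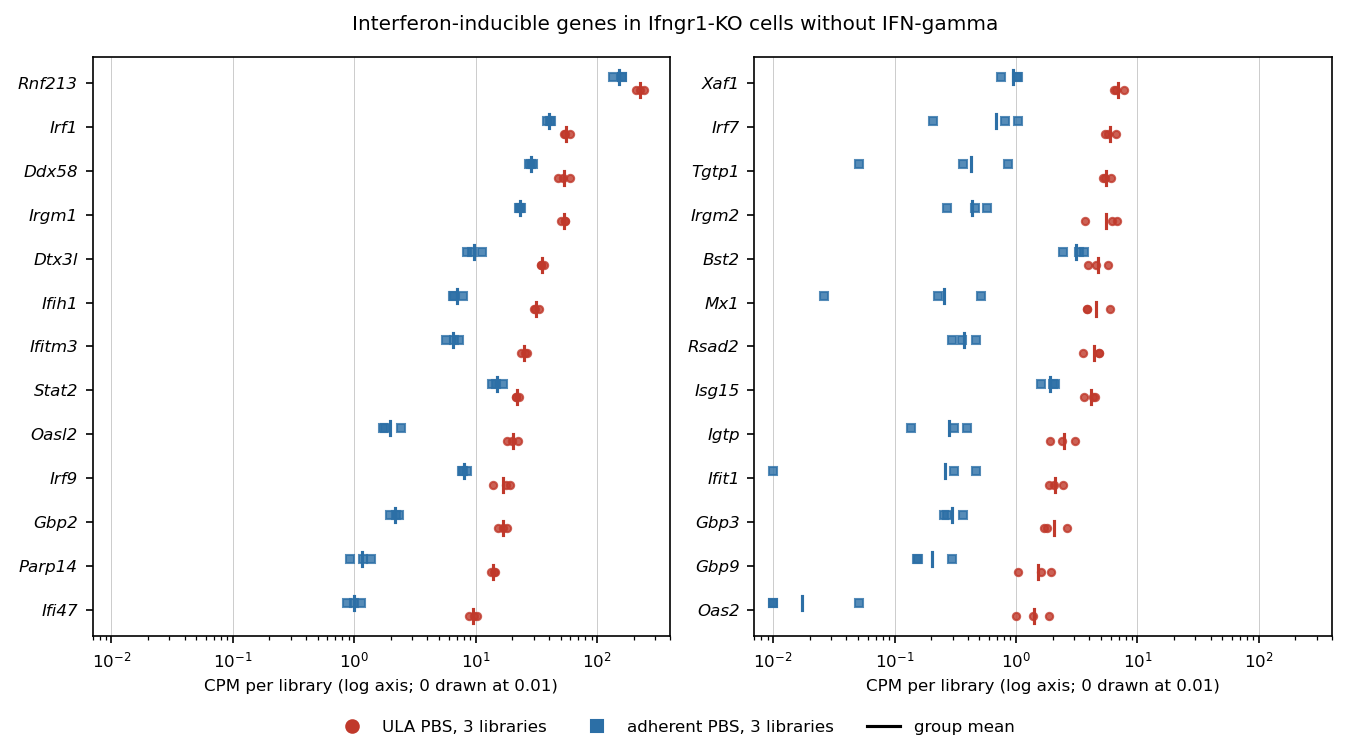
CPM in each library (log axis, 0 drawn at 0.01) of 26 interferon-inducible genes whose ULA mean was 1 CPM or more, ordered by that mean. Circles are ULA and squares adherent libraries without IFN-gamma, bars are group means; the genes were kept through their ULA level, so that their order between cultures is a description, with a small gap in Bst2 and a wide one in Parp14 and Mx1.

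Complement and acute-phase genes rose in 11 of 15 cases and fell in 2 (median 2.16). C3, the central complement component, stood at 182, 169 and 172 CPM on ULA and at 19.6, 17.1 and 19.4 CPM in adherent cells (3.22 ± 0.12, adjusted p = 1.91e-16). The protease C1s1 rose by 3.03 ± 0.13, the complement inhibitor Cd55 by 2.48 ± 0.07 and the copper carrier Cp by 1.56 ± 0.06, while the acute-phase genes Lcn2 and Saa3 fell from low levels. Antigen presentation genes were mixed, with 10 of 20 higher and 2 lower (median 0.57). The 2 lower ones were Cd74 (-4.17) and H2-M3 (-1.64). Tapbp, which loads peptides onto MHC class I, rose from 123, 123 and 126 CPM to 404, 427 and 432 CPM (1.77 ± 0.06). Class I genes, chosen after their values were seen, were mixed. H2-K1 stood at 17.5 against 17.8 CPM and, like H2-T22 (0.04), was not called. H2-D1, H2-T23 and B2m rose by 0.45, 1.34 and 0.42. Cd274, the checkpoint ligand PD-L1, was at 8.58, 8.25 and 9.04 CPM on ULA and at 6.47, 5.56 and 2.59 CPM in adherent cells. Its log2 fold change of 0.82 ± 0.30 was called (adjusted p = 0.0223), but was 0.54 without adherent replicate 3 (adjusted p = 0.091).

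Genes of the hypoxia response, which HIF factors induce in low oxygen, rose in 19 of 22 cases and fell in 1 (median 1.40). Egln3, a HIF prolyl hydroxylase, stood at 370, 405 and 391 CPM on ULA and at 55.7, 49.0 and 66.1 CPM in adherent cells (2.77 ± 0.13, adjusted p = 1.82e-13). Car12, a carbonic anhydrase, rose by 2.39 ± 0.07, the collagen lysyl hydroxylase Plod2 by 2.06 ± 0.11 and the mitophagy receptor Bnip3l by 0.93 ± 0.08. Ero1l, an ER oxidase that is listed here for its hypoxia response, was among the most abundant genes and rose from 1767, 1680 and 1899 CPM to 4716, 4317 and 4306 CPM, the opposite direction to the ER chaperones. Ddit4, which belongs to this list and to the integrated stress response, fell by 1.06. Glycolysis genes rose in 20 of 23 cases and fell in none (median 0.90). Hk1, the hexokinase that starts the pathway, stood at 892, 879 and 902 CPM against 171, 168 and 180 CPM (2.37 ± 0.10), and Pfkp rose by 1.44 ± 0.07 and Pgk1 by 0.65 ± 0.06. Of 7 genes tied to glucose sensing 4 rose and 1 fell. Txnip, which restrains glucose uptake, went from 7.46, 5.18 and 7.03 to 122, 111 and 111 CPM (4.13 ± 0.21, adjusted p = 5.98e-12), its relative Arrdc3 rose by 2.63 ± 0.20 and the glucose-responsive factor Mlxipl by 1.99 ± 0.12. The E-box (CACGTG) was in 3 of 6 promoters of these genes (50%) and in 8.09% of all. Its carriers were Mlxipl, which rose, and Arrdc4 and Mlx, which were not called. Txnip and Arrdc3 were not among them.

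Mitochondrially encoded genes rose in 12 of 13 cases (median 1.08), with mt-Cytb at 4082, 3799 and 3884 CPM on ULA against 1575, 1385 and 1398 CPM (1.43 ± 0.07). They took 3.72 ± 0.130% of the counts on ULA and 2.28 ± 0.144% in adherent libraries (SD, n = 3 each), a difference of 1.44 percentage points at the smallest two-sided p that an exact permutation of 3 against 3 can give (0.1). The dead cell removal step, run on ULA wells alone, and the culture cannot be told apart in this share. Respiratory chain genes of the nucleus moved less, with 24 of 35 higher and none lower (median 0.29), or 31 of 35 without adherent replicate 3. Among them the succinate dehydrogenase subunits Sdhd (1.04 ± 0.07) and Sdhc (0.69 ± 0.06) had the lowest adjusted p-values. Fatty acid oxidation genes rose in 17 of 29 cases and fell in 2 (median 0.44).

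Integrins, the receptors of the matrix, rose in 11 of 15 cases and fell in none (median 1.18). Itgb3, the beta chain of the vitronectin receptor, stood at 579, 613 and 625 CPM on ULA and at 71.1, 81.1 and 85.5 CPM in adherent cells (2.93 ± 0.08, adjusted p = 2.11e-24). Its partner Itgav rose by 1.40 ± 0.06, the laminin receptor chain Itga6 by 1.60 ± 0.05 and the fibronectin receptor chain Itga5 by 1.20 ± 0.07, whereas the common beta chain Itgb1 rose by 0.48 ± 0.04. Matrix genes rose in 16 of 31 cases and fell in 6 (median 0.65). Thbs1, the matricellular protein thrombospondin 1, stood at 410, 384 and 402 CPM against 29.5, 36.6 and 35.1 CPM (3.56 ± 0.08, adjusted p = 2.07e-28), and fibronectin, Fn1, rose by 1.00 ± 0.11. Dcn, Nid1 and Tnc rose by 2.48, 2.71 and 2.00, while Col1a1 fell by 2.08 ± 0.14. Of 21 matrix proteases and inhibitors 15 rose and 2 fell (median 0.96), among them the plasminogen activator Plat (2.70 ± 0.07), the protease Adamts9 (2.65 ± 0.07) and the inhibitor Timp2 (1.87 ± 0.05), the 3 with the lowest adjusted p-values. Larger fold changes were those of Mmp10 (3.43 ± 0.10) and, at 0 to 0.154 CPM in adherent libraries, Mmp15 (4.69 ± 0.50).

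The cytoskeleton and junctions changed in both directions. Focal adhesion genes rose in 14 of 25 cases and fell in 5, among them Vcl (0.61 ± 0.06) and Actn1 (0.79 ± 0.06), which rose, and Lims1 (-1.28 ± 0.06), which fell. Actin genes and targets of the serum response factor rose in 14 of 23 cases and fell in 2 (median 0.35), among them Palld at 2.12 ± 0.07 and, at under 1 CPM in each library, Myl9 at 3.86 ± 0.89. Targets of YAP and TAZ, which respond to cell spreading, split: 12 of 23 rose and 8 fell (median 0.19). Ankrd1 fell from 188, 191 and 188 CPM to 41.5, 42.6 and 41.1 CPM (-2.18 ± 0.05, adjusted p = 4.76e-28) and Ccn1 fell by 1.16 ± 0.09. Ccn2, another standard target, stood at 41.6, 39.8 and 35.6 CPM on ULA and at 40.9, 40.7 and 47.8 CPM when adherent, with overlap (-0.14 ± 0.08, adjusted p = 0.124), while Crim1 rose by 1.04 ± 0.06. The TEAD motif (GGAATG, both strands) was in 8 of 17 promoters of the list (47.1%), of genes that rose and genes that fell, and in 16.6% of all genes. Junction genes rose in 14 of 19 cases and fell in 1 (median 0.56), with plakoglobin, Jup, at 1.32 ± 0.05 and beta-catenin, Ctnnb1, at 0.53 ± 0.04.

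Epithelial and mesothelial genes rose in 10 of 19 cases and fell in 2 (median 0.64). Krt19 rose from 547, 521 and 719 to 2030, 2108 and 2024 CPM (1.78 ± 0.10), Krt8 by 1.49 ± 0.07 and Wt1 by 1.51 ± 0.06, and the nuclear receptor Nr2f2 fell by 1.09 ± 0.07. Of 9 mesenchymal genes 3 rose and 1 fell, the factor Snai2 at -1.74 ± 0.10, and Vim rose by 0.32 ± 0.06. Of the markers of other cell types, 5 of 14 macrophage markers, 9 of 15 lymphocyte markers and 5 of 10 endothelial markers were at 0 in all 6 libraries. The summed level of the macrophage list was 29.8 to 33.7 CPM on ULA and 15.3 to 17.1 CPM in adherent cells, with Cd68 and Mrc1 among its counted members. The endothelial list, most of it Vwf, summed to 75.8 to 81.6 CPM against 25.5 to 36.2 CPM. The fibroblast list summed to 101 to 104 CPM against 34.4 to 41.7 CPM, most of it Dcn. These 3 lists did not overlap between cultures, and their part in the results was not tested.

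**Figure D3:**
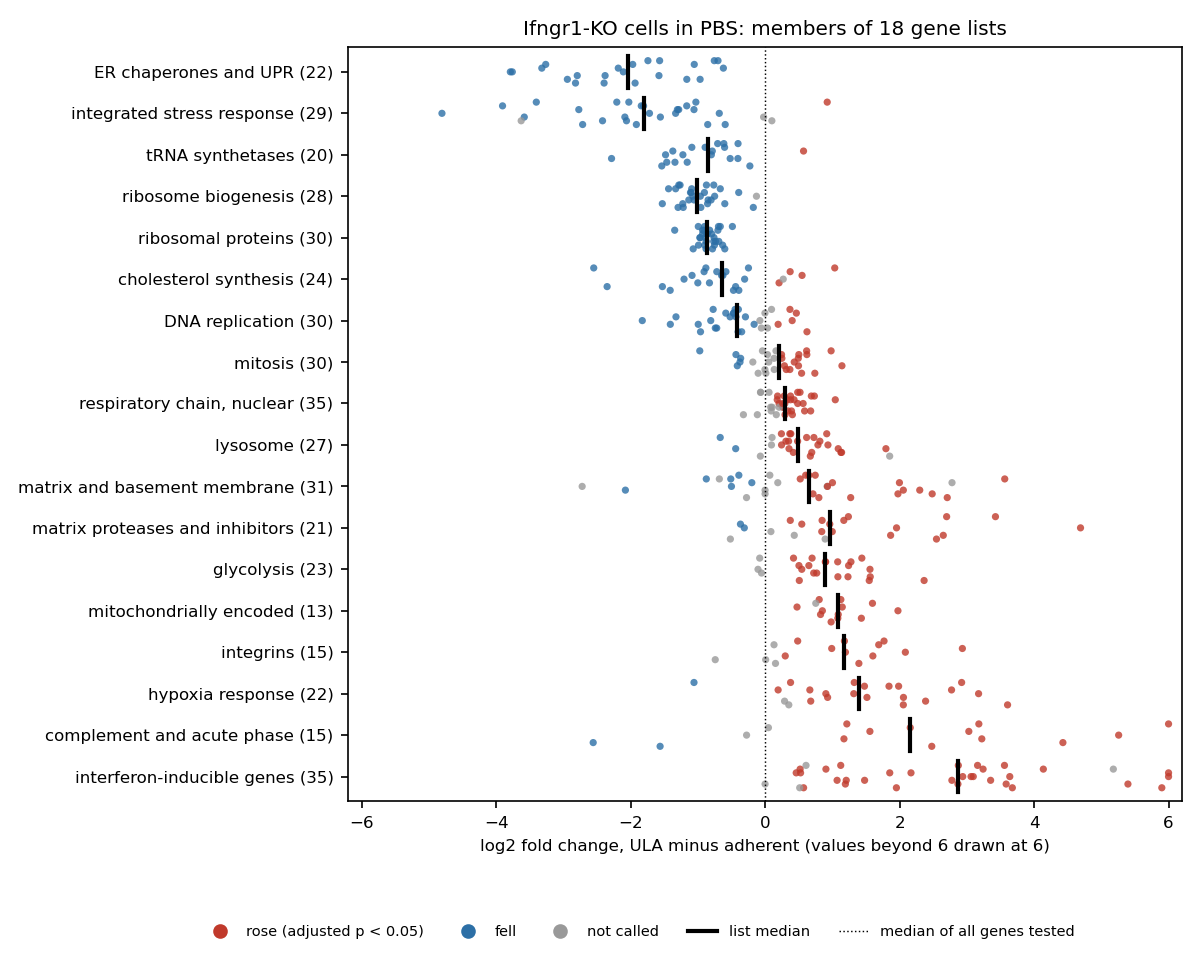
Log2 fold change (ULA minus adherent) of each tested member of 18 gene lists, with the number of members in brackets. Red points rose, blue points fell and grey points were not called; black bars are list medians, from -2.04 in ER chaperones to 2.87 in interferon-inducible genes, and the dotted line is the median of all genes tested (-0.004).

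Survival and cell cycle genes showed no single direction. Of 23 genes of the BCL2 family and anoikis 11 rose and 7 fell (median 0.16). The BH3-only genes Bmf and Bcl2l11 (BIM), which act in anoikis, rose: Bmf from 10.6 ± 0.835 to 51.3 ± 3.81 CPM (2.27 ± 0.10, adjusted p = 4.10e-20) and Bcl2l11 by 1.21 ± 0.07. Bad, also BH3-only, rose by 0.50 ± 0.12, while Bbc3 (PUMA) and Bid fell by 1.09 ± 0.14 and 0.54 ± 0.08. Cflar, which blocks caspase 8, fell by 0.78 ± 0.05. DNA replication genes fell in 20 of 30 cases and rose in 5 (median -0.42), with the licensing factors Cdc6 and Cdt1 at -1.83 ± 0.08 and -1.41 ± 0.07. Mitosis genes rose in 15 of 30 cases and fell in 5 (median 0.20; 18 rose without adherent replicate 3). Mki67 stood at 418, 408 and 403 CPM on ULA and at 276, 267 and 258 CPM in adherent cells (0.62 ± 0.07), Kif20a rose by 1.14 ± 0.09, and Anln, which also organises actin, fell by 0.97 ± 0.06. Ccnd1 fell by 0.75 ± 0.06 and Myc by 1.48 ± 0.09, while Ccnd3 rose by 0.98 ± 0.08. The inhibitor Cdkn1b rose by 0.20 ± 0.06, and the inhibitors Cdkn1a, Cdkn2d and Cdkn2c rose by 1.91, 0.94 and 0.40. Of 21 listed p53 targets 12 fell and 7 rose, Cdkn1a among the latter, in cells without p53 function by label. Eda2r had 179 counts in adherent cells and none on ULA, 56.3-fold lower against a floor of 3 counts over the group. Gadd45a fell by 2.01 ± 0.09.

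Lipid synthesis changed moderately. Of 24 cholesterol synthesis genes 19 fell and 4 rose (median -0.64). Mvd and Lss, which act early and late in the pathway, fell by 2.55 ± 0.17 and 1.53 ± 0.07. Hmgcs1, an early enzyme of the pathway, rose from 199 to 216 CPM in adherent libraries to 396 to 438 CPM on ULA (1.04 ± 0.07). The sterol regulatory element (TCACNCCAC, both strands) was in 1 of 16 promoters of the list (6.25%), that of Hmgcs1, and in 1.44% of all genes. Fatty acid synthesis genes rose in 8 of 16 cases and fell in 6.

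The same comparison under IFN-gamma, in 6 other libraries of the line, was a separate measurement of the effect of culture. It called 8800 genes (60.2%; over 2-fold, 10.7% rose and 6.69% fell), of which 7832 were called in the same direction in PBS, which is 88.3% of the PBS calls and 89% of the IFN-gamma calls, and 5 were called in opposite directions. Of the 2670 genes that changed over 2-fold in PBS, 2618 had the same sign with IFN-gamma and 2298 were called the same way. Across the 14622 genes, which are not independent replicates, the log2 fold changes had a Pearson correlation of 0.79. ER chaperones fell in 22 of 22 cases (median -2.01), integrated stress response genes in 26 of 29 (-1.69), and interferon-inducible genes rose in 30 of 35 (2.67). Muc4 rose by 5.14, Hspa5 fell by 2.77 and Egln3 rose by 2.75, against 5.48, 2.79 and 2.77 in PBS.

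**Figure D4:**
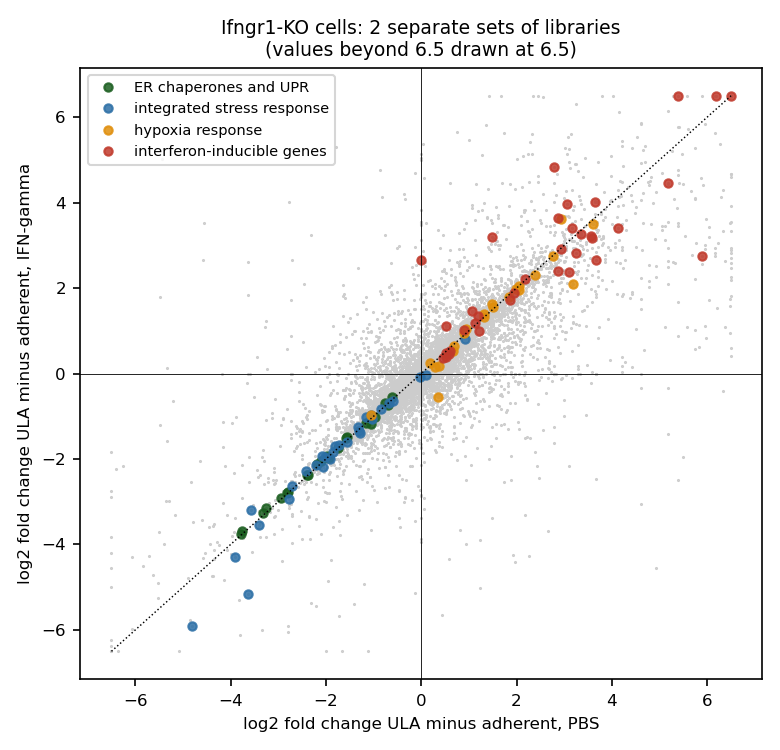
Log2 fold change of ULA against adherent Ifngr1-KO cells in PBS (horizontal) and with IFN-gamma (vertical) for 14622 genes in grey, with 4 gene lists in colour. The dotted line marks equal values; the 22 ER chaperone genes lie below 0 on both axes, and interferon-inducible genes lie at or above 0 on both.

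The sgNTC line showed which parts of the effect differed between lines, by a test of the difference between the PBS effects of both lines, Ifngr1-KO minus sgNTC. In sgNTC cells 64.6% of genes were called, 32.5% higher and 32.1% lower on ULA (over 2-fold, 13.8% and 8.19%). This also carries every other difference between these 2 lines. It called 4068 genes (27.8%), 2426 with a larger (16.6%) and 1642 with a smaller value (11.2%) in the Ifngr1-KO line, and over 2-fold 2.13% and 2.5%. That split depends on the scaling: with library totals it was 1706 larger and 2356 smaller, and with upper-quartile factors 1965 and 2039. Of the 4068, 2095 were called the same way in both lines, so that they differ in size, 693 were called in the Ifngr1-KO line alone, 916 in sgNTC alone and 332 in opposite directions.

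Among mitosis genes, all of the 28 called differences among the 30 genes were larger in the Ifngr1-KO line, with a median effect of 0.20 here and -0.54 in sgNTC cells, and 27 to 29 were called larger under every setting tried other than the 1.5-fold threshold. In sgNTC cells 24 of the 30 fell on ULA and 2 rose. Mki67 rose by 0.62 in the Ifngr1-KO line and fell by 0.47 in the sgNTC line, a difference of 1.09 ± 0.09 (adjusted p = 7.52e-11). Cenpf rose by 0.98 ± 0.07 against 0.01 in sgNTC cells. The CHR motif of cell cycle genes (TTTGAA, both strands) was in 18 of 24 promoters of the list (75%) and in 20.2% of all genes. Cholesterol synthesis genes fell less here, with a median of -0.64 against -1.83. The difference was called in 21 of 24 genes, each time larger in the Ifngr1-KO line: Lss fell by 1.53 here and by 3.03 in sgNTC cells.

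**Figure D5:**
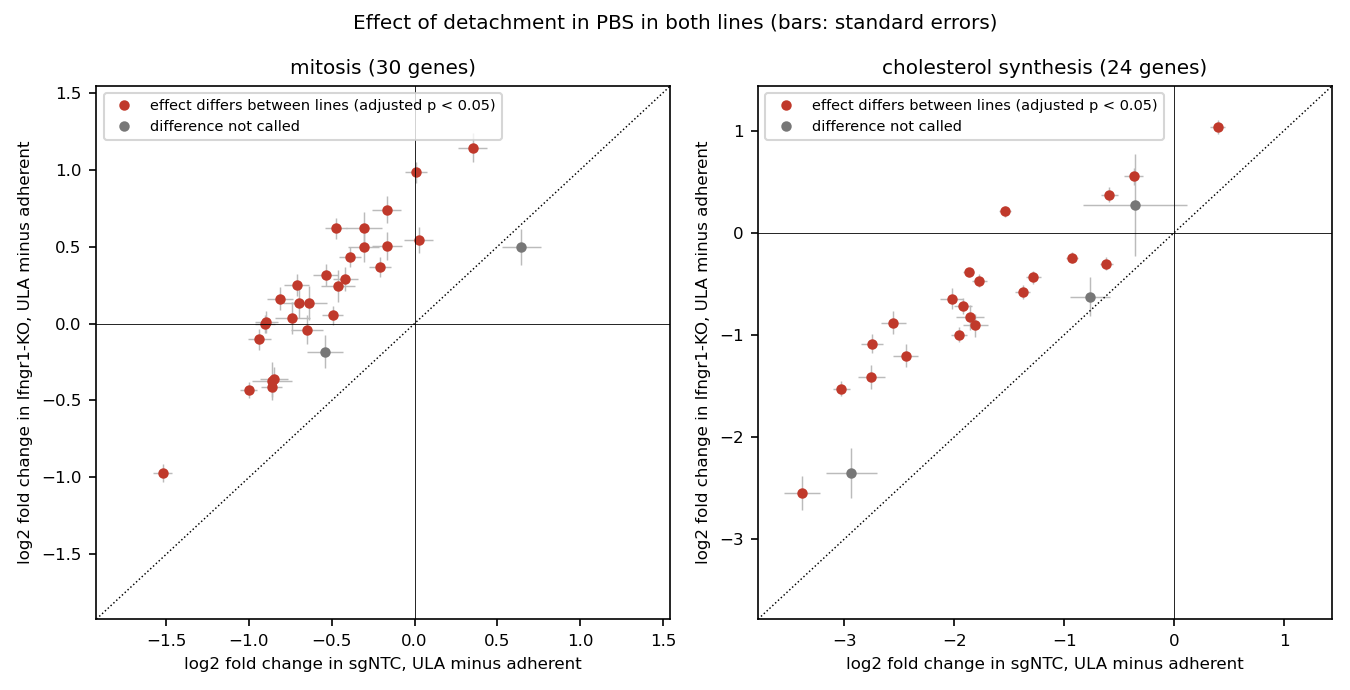
Log2 fold change of ULA against adherent cells in PBS in the sgNTC line (horizontal) and in the Ifngr1-KO line (vertical) for mitosis genes (left) and cholesterol synthesis genes (right), with standard errors from the fit. Red points mark genes whose effect differed between lines (28 of 30 and 21 of 24), all of them above the dotted line of equal effect.

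The large falls were shared but smaller here. ER chaperones fell in 22 of 22 genes in both lines, with medians of -2.04 and -2.49, and 15 differed, all with the smaller fall in the Ifngr1-KO line (13 to 17 across settings). Hspa5 fell by 2.79 here and by 3.58 in sgNTC cells (difference 0.79 ± 0.07, adjusted p = 1.56e-10). The integrated stress response gave -1.81 against -2.34 with 19 larger and 2 smaller differences, and Chac1 was at -3.40 against -5.07. Integrins were raised more, with a median of 1.18 against 0.31 and 8 of 15 differences larger: Itga5 rose by 1.20 here and was at -0.04 in sgNTC cells. Interferon-inducible genes had medians of 2.87 and 2.17, but only 6 of 35 differed, 4 larger and 2 smaller, among them Parp14 (larger by 1.46 ± 0.25) and Ifitm3 (smaller by 0.58). Counts of larger differences in this list ran from 3 to 10 across settings. Muc4 rose by 5.48 against 3.98 and C1qtnf1 by 4.40 against 2.27, whereas Txnip rose by 4.13 against 5.69.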

How the data were processed

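PolyA RNA of 24 libraries (8 groups of 3) was sequenced. Per the submitters' processing notes, Trimmomatic, HISAT2, SAMtools, featureCounts and DESeq2 were used on mm10 (GRCm38). The deposited values are raw read counts per gene made by the authors with featureCounts 2.1.1, per the file headers, unstranded, with each mate of a pair counted; overlapping genes and near-identical copies can share or lose reads. The aligner's version is not given in the sources used here.

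Groups came from the labels. Counts of all 24 libraries were fitted with edgeR 4.0.16 (R 4.3.3, limma 3.58.1), TMM factors (0.958 to 1.05), 8 group means and robust quasi-likelihood tests on 14622 genes kept by filterByExpr at a minimum count of 10. Fold changes are log2 with standard errors, and calls are at an adjusted p under 0.05. A single share was tested with an exact permutation test (scipy 1.17.1). The scripts were tested on simulated data. Depth was 38185599 to 43877127 counts in the 6 libraries, and limits from 0 counts cover counting error only. Tables were handled with pandas 2.3.3 in Python 3.11.15 and drawn with matplotlib 3.10.9.

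Genes were named by rule: the 12 largest changes each way among called genes that averaged 5 CPM or more in either group, without overlap, the 8 most abundant called genes past 1.5-fold, up to 4 called members of each of 50 lists by adjusted p, fixed genes (among them Ifngr1, Itgb1 and Mki67), and the 6 largest line differences each way. Other genes are named after their values were seen. Some genes taken by the rule or the lists are not reported here by name, though list counts include them. The members and lists were chosen with earlier results of these data known. Alternatives were other scalings and filters, DESeq2 1.42.0, a replicate block, halved counts, a test against a 1.5-fold change, only the groups compared, and each replicate left out. Added after seeing the data were the full ER stress element, list counts without adherent replicate 3, medians with members at their limit, limits with 1 library left out and list ranges of the line difference. Promoters and gene positions are of GRCm38 (RefSeq GRCm38.p6 and GENCODE). The other 6 libraries, of sgNTC cells with IFN-gamma, entered the fit and the check of response genes.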

Additional observations from a re-analysis of the deposited data

Results flagged for a closer look

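The effect of detachment in PBS differed between the Ifngr1-KO and sgNTC lines for 4068 genes by the test of the difference (edgeR, adjusted p under 0.05), and the values below are Ifngr1-KO minus sgNTC on the log2 scale. Among genes with at least 5 CPM in 1 of the 4 groups, the largest positive differences were Sgk3 (5.14), Derl3 (4.85), the mucin Muc16 (3.48), Edn2 (3.34), the keratin Krt15 (2.82) and the RNA sensor Tlr7 (2.53). Krt15 stood at 10.9, 10.1 and 9.04 CPM on ULA and at 0.522, 0.727 and 0.821 CPM in adherent Ifngr1-KO cells, without overlap. The largest negative ones were Pnliprp1 (-10.57), Gas1 (-6.88), Eda2r (-5.38), Mtss1l (-2.72), mt-Atp8 (-2.55) and Matn2 (-2.42). Some rest on few counts in the Ifngr1-KO line: Sgk3 had 24 counts on ULA and 0 in adherent cells, Gas1 0 and 15, Eda2r 0 and 179, and Pnliprp1 12 and 4, so these fitted values depend on the prior count and are no bounds. Reads of mt-Atp8 cannot be separated from those of the overlapping mt-Atp6. Each line is 1 line, and line and genotype cannot be told apart.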

How the results depend on the processing

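The count of genes called in PBS was 8277 to 8967 over the other scalings, filters, tools and fits and 8300 to 8595 with 1 library left out. With 1 library left out it was 3515 to 3999 for the line difference and 8204 to 8372 under IFN-gamma. A test against a 1.5-fold change called 3319 genes in PBS, 1859 higher and 1460 lower, 430 for the line difference and 3194 under IFN-gamma. The mitochondrial share differed by 1.37 to 1.52 percentage points with 1 library left out and by 0.795 without mt-Co1. Same-numbered libraries did not deviate together (correlations -0.0112, -0.0132 and 0.0005). With 3 libraries per group this cannot settle whether the numbers pair libraries, and the labels do not say. A replicate block gave 8833 calls in PBS, 4064 for the line difference and 8790 under IFN-gamma. Of 3828 values of 240 named genes, 3781 kept direction and side of the threshold, 42 lost the call, 5 gained it and none reversed. Cd274 lost its call without adherent replicate 3 (adjusted p = 0.091 by edgeR) or ULA replicate 3 (0.0506), and S100a4 without adherent replicate 2 (0.0649); the cause was not tested. Depth limits genes with few counts, above all those with none in 1 culture.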

Other observations

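Of 13 circadian clock genes 4 rose and 5 fell, shares near those of all genes (29.6% and 31.1%). Nr1d1, the repressor REV-ERB alpha, stood at 54.8, 57.4 and 51.6 CPM on ULA and at 6.60, 7.02 and 4.72 CPM in adherent cells (log2 fold change 3.16 ± 0.21), and the output gene Dbp rose by 1.77 ± 0.12. The repressors Per2 and Cry1 fell by 1.17 and 1.92.

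Lysosomal genes rose in 21 of 27 cases and fell in 2 (median 0.48), among them Gla (1.80), Ctsb (1.13) and Lamp1 (0.82), while the autophagy receptor Sqstm1 fell from 1534, 1534 and 1567 to 740, 701 and 744 CPM. The letters TCACGTG were in 8 of 21 lysosomal promoters (38.1%) and 4.29% of all. Histone genes on the list rose in 7 of 11 cases and fell in none, with Hist1h2bc at 54.7, 61.2 and 55.4 CPM on ULA and 6.86, 6.65 and 8.78 CPM in adherent cells. Libraries were made from polyA RNA. Stem cell-linked genes rose in 8 of 13 cases and fell in 3, with Aldh1a1 at 2.99 ± 0.11 and Cd44 at 1.43 ± 0.05. The cystine carrier Slc7a11 fell by 1.30 here and by 3.80 in sgNTC cells (difference 2.49 ± 0.25, adjusted p = 6.34e-07 by edgeR). Lamp1, Hist1h2bc, Cd44 and Slc7a11 were compared after their values were seen where the naming rule did not take them.

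Of the transgenes counted, mCherry was at 205 to 218 CPM and PuroR at 174 to 192 CPM over the 6 libraries. Cas9 was at 92.9 to 116 CPM on ULA and 65.0 to 74.8 CPM in adherent cells, without overlap.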
